A study of Mus musculus with 36 samples.

Results

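Loss of PCGF2 and PCGF4, the subunits that define canonical PRC1 (cPRC1), was examined in mouse epiblast-like cells (EpiLCs), the formative state that embryonic stem cells (ESCs) reach after leaving naive pluripotency. The comparison was defined by the library labels and held 3 Pcgf2/4 KO libraries and 3 WT libraries of the same set, 6 of the 36 poly(A) RNA-seq libraries of the series. Results are given for autosomal genes, which were 50957 of the 55401 genes in the files. Pcgf2/4 KO EpiLCs carry a knockout of Pcgf2 and Pcgf4 (Bmi1) by their label, and the WT EpiLCs carry none. Both groups are labelled as strain C57BL/6 and were taken after 2 days of differentiation in 20 ng/mL activin A plus 12 ng/mL bFGF. The sources used here do not give the deleted sequence, the clone, the origin of the WT line or whether the replicates were grown separately. Each p-value therefore covers only the variation among these 6 libraries, which may be technical. The labels list the molecule of these 6 samples as genomic DNA while describing poly(A) RNA libraries, and the values are read counts over genes.

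PRC1 is a Polycomb repressor that ubiquitinates histone H2A through RING1A or RING1B. Its form is set by the PCGF protein that RING1 binds: PCGF2 (MEL18) and PCGF4 (BMI1) build the canonical form with a CBX protein, which reads H3K27me3 laid down by PRC2, and a PHC protein, which compacts chromatin by polymerising. The variant forms carry PCGF1, PCGF3, PCGF5 or PCGF6 with RYBP or YAF2. Polycomb targets in pluripotent cells are mostly silent developmental regulators with CpG-rich promoters, such as Hox genes and other homeobox genes.

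The study sorted promoters with the PRC2 subunit SUZ12 by whether SUZ12 was gained (recruited), kept (maintained) or lost (displaced) between ESCs and EpiLCs in other WT lines of the series. Genes were given a class here when a transcription start lay within 2000 bp of such a site. The promoters of the 3 recruited targets with the largest increases in Pcgf2/4 KO EpiLCs among those with an entry in the RefSeq promoter table (GRCm38.p6) are shown so that the CG content of targets that rose can be read directly. Each runs 5′ to 3′ over 300 bases around the transcription start, with CG dinucleotides in capitals. Inhbb lies at chr1:119422199-119422498 on the minus strand, Meis2 at chr2:116064570-116064869 on the minus strand and Frmd4b at chr6:97617608-97617907 on the minus strand.
Inhbb: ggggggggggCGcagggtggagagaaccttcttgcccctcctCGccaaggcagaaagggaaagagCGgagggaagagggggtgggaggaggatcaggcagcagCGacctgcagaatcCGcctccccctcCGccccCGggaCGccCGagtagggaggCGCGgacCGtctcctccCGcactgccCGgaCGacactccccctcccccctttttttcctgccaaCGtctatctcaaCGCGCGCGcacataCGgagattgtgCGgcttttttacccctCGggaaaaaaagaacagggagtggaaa
Meis2: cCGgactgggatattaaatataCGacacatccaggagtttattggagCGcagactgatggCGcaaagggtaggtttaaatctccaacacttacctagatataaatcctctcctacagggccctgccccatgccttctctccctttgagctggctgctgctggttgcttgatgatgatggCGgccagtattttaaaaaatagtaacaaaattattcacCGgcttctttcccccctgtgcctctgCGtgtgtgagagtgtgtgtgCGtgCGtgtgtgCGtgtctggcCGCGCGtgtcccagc
Frmd4b: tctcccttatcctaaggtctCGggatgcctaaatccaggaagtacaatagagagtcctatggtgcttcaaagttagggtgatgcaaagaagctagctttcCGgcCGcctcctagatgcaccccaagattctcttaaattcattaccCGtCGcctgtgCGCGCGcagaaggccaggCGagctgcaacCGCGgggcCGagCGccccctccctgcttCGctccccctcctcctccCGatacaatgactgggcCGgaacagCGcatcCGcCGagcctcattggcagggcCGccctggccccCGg

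The Inhbb promoter held 23 CG dinucleotides, that of Meis2 held 13, fewer than the median of 21 over the autosomal genes tested that have an entry, and that of Frmd4b held 21. At least 15 were found in 35.2% of the 27025 promoters of the table, and in 73.2% of the 9305 promoters of autosomal genes tested. CG reads the same on both strands. A comparison of promoter sequence between groups of genes was void, because the table held a promoter for 19 of the 35 recruited targets that rose.

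Counts in genes were 10403211 to 10856276 (median 10492694) in Pcgf2/4 KO libraries and 10452715 to 11146921 (median 10622069) in WT libraries. Between any 2 Pcgf2/4 KO replicates, 16 to 29 of the 12263 autosomal genes tested differed by over 2-fold, and between any 2 WT replicates 14 to 18 did. Levels are CPM (counts scaled to a common library size, with TMM factors over all 36 libraries), and a change is a log2 fold change of Pcgf2/4 KO over WT with its standard error (SE). Genes were called higher or lower when the adjusted p of edgeR's quasi-likelihood test was under 0.05 and the absolute log2 fold change over 1.

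The mRNA of the targeted genes did not check the labels. Pcgf2 (ENSMUSG00000018537, chromosome 11, 97688823 to 97700497 in GRCm38) had 61.6, 64.6 and 67.6 CPM in Pcgf2/4 KO libraries, against 59.4, 55.5 and 62.0 CPM in WT libraries. Bmi1 (ENSMUSG00000026739, chromosome 2, 18677018 to 18686629) had 24.0, 21.9 and 23.1 CPM in Pcgf2/4 KO libraries, against 19, 23.9 and 23.0 CPM in WT libraries. Neither transcript was lower in the knockout. The log2 fold change was 0.15 (SE 0.06, adjusted p = 0.0198) for Pcgf2 and 0.09 (SE 0.09, adjusted p = 0.376) for Bmi1 in edgeR. Counts over a whole gene cannot show a small deletion or a frameshift, so the genotype is taken from the label alone.

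The sex chromosomes set the groups apart. Kdm5d, Uty and Eif2s3y, which lie on the Y chromosome, had 0 counts in each Pcgf2/4 KO library, against 91 to 107, 541 to 565 and 1152 to 1226 counts in WT libraries. Ddx3y, whose X-linked paralog is closely similar, had 358 to 394 counts in Pcgf2/4 KO libraries and 1374 to 1496 counts in WT libraries. Xist, on the X chromosome, had 61 to 78 counts in Pcgf2/4 KO libraries and 406 to 447 counts in WT libraries. The WT libraries thus held both Y transcripts and Xist. Genes on chromosomes 3 and 15 had medians of 0.19 and 0.16 on the log2 scale, while the medians of the 17 other autosomes lay between -0.03 and 0.05. In the plot of medians by chromosome, all 3 Pcgf2/4 KO libraries stood above the WT libraries on these chromosomes. The genotype and these differences between the lines cannot be told apart for any gene below. Outside chromosomes 3 and 15, 190 autosomal genes were called higher and 414 lower, as an alternative added after the data were seen.

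**Figure D1:**
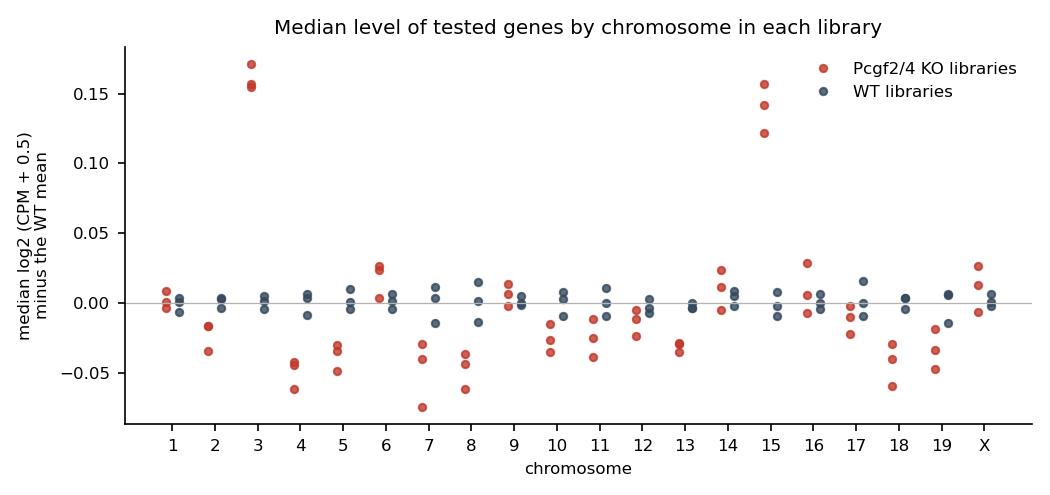
Median, over the genes tested on each chromosome, of log2 (CPM + 0.5) minus the mean of the WT libraries, with 1 point for each of the 3 Pcgf2/4 KO libraries (red) and 3 WT libraries (dark). On chromosome 3 the Pcgf2/4 KO points lie at 0.155 to 0.171 and on chromosome 15 at 0.122 to 0.157, above all WT points.

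Over all autosomal genes tested, more genes were called lower than higher. Of 12263 genes, 240 (1.96%) were called higher and 452 (3.69%) lower in Pcgf2/4 KO EpiLCs. At an adjusted p under 0.05 with no fold limit, 3624 autosomal genes (29.6%) were higher and 3357 (27.4%) lower, and counts of list members at that threshold are to be read against these shares. Most changes were small: 14 of the genes called higher and 63 of those called lower had an absolute log2 fold change over 2, and the quartiles over all autosomal genes were -0.21 and 0.24. On the X chromosome, 10 of 464 genes tested were called higher and 31 lower. A bulk library cannot tell more cells that express a gene from more RNA per cell.

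The largest increases joined a pluripotency regulator, signalling genes and genes of oxygen response. Prdm14 (ENSMUSG00000042414, chromosome 1, 13113457 to 13127163), a zinc finger repressor that maintains naive pluripotency and is needed for germ cells, had 6.24, 6.69 and 6.06 CPM in Pcgf2/4 KO libraries, against 0.924, 0.196 and 0.871 CPM in WT libraries. Inhbb, which encodes the beta B subunit of activin and inhibin, had 39.4, 43.7 and 35.4 CPM in Pcgf2/4 KO libraries, against 5.08, 6.16 and 6.77 CPM in WT libraries. For both genes every knockout library lay above every WT library by several fold. The log2 fold change was 3.24 (SE 0.27, adjusted p = 1.04e-13) for Prdm14 and 2.74 (SE 0.11, adjusted p = 2.36e-24) for Inhbb in edgeR.

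Vax2, a homeobox gene of the ventral eye, had the largest increase at a log2 fold change of 3.40 (SE 0.37), from low levels of 2.74 to 3.75 CPM in Pcgf2/4 KO libraries and 0.194 to 0.391 CPM in WT libraries. A2m, which encodes the protease inhibitor alpha-2-macroglobulin, had 26.5, 31.4 and 29.7 CPM in Pcgf2/4 KO libraries, against 6.56, 5.57 and 5.13 CPM in WT libraries. Its libraries did not overlap between the groups, which was a condition for being named here. Ndrg1, a gene induced by low oxygen, had 259, 248 and 227 CPM in Pcgf2/4 KO libraries, against 54.5, 48.8 and 50.2 CPM in WT libraries. Ndrg1 lies on chromosome 15. Ccnd2, which encodes cyclin D2 of the G1 phase, had 141, 141 and 142 CPM in Pcgf2/4 KO libraries, against 35.2, 33.2 and 36.0 CPM in WT libraries. Ndrg1 and Ccnd2 were the abundant genes among the 12 largest increases, at log2 fold changes of 2.28 (SE 0.05) and 2.04 (SE 0.05). The remaining ones were Id1, the cytochrome c oxidase isoform Cox4i2, the nucleotide sugar transporter Slc35d2, the junction protein Jam2, the G protein regulator Rgs9 and Pdgfra, with log2 fold changes of 2.35, 2.28, 2.23, 2.22, 2.05 and 2.01.

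The largest decrease was in Egr1 (chromosome 18, 34859823 to 34864984), an immediate early transcription factor induced by ERK signalling. Egr1 had 1.61, 1.55 and 1.73 CPM in Pcgf2/4 KO libraries, against 42.1, 36.1 and 33.2 CPM in WT libraries. Its log2 fold change was -4.48 (SE 0.14, adjusted p = 1.63e-27 in edgeR). The other large decreases were in genes of low level. Trim67 fell by 4.13, Csmd2 by 4.05 and the olfactory receptor gene Olfr307 by 3.60 on the log2 scale, and each lay under 1 CPM in every knockout library. Cox7b2, a cytochrome c oxidase subunit isoform, had 1.23, 1.07 and 1.54 CPM in Pcgf2/4 KO libraries, against 12.0, 12.5 and 12.1 CPM in WT libraries. Skor1, a corepressor of the SKI family, Tll1, a tolloid-like protease, and Slc6a5, a glycine transporter, had log2 fold changes of -3.18, -3.01 and -2.99.

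Genes of extracellular matrix and contractile cells were part of the same group. Dcn, which encodes the proteoglycan decorin, had 0.378, 0.194 and 0.0961 CPM in Pcgf2/4 KO libraries, against 2.96, 4.50 and 4.45 CPM in WT libraries. Col1a2, a chain of type I collagen, had 0.378, 0.194 and 0.192 CPM in Pcgf2/4 KO libraries, against 2.59, 4.69 and 3.48 CPM in WT libraries. Thbs1, which encodes thrombospondin, and Myl9, a myosin light chain, had log2 fold changes of -3.16 and -3.11. Of 6 fibroblast markers 3 were tested, and these 3 were called lower (Col1a2, Dcn and Thy1), beside 3.69% of all autosomal genes tested. Col1a2 had 8 counts over the Pcgf2/4 KO libraries and 112 over the WT libraries, and Dcn had 7 and 124. Both passed the count minimum only through the WT libraries and so had to be lower, which makes this share a description. Col1a1 had 30 counts over the Pcgf2/4 KO libraries and 39 over the WT libraries, and Col3a1 and Lum had 0 in all 6 libraries. On a longer fibroblast list with 7 genes tested, Pdgfrb was called higher and the median log2 fold change was 0.34. At an adjusted p under 0.05, 4 genes of that list were higher and 3 lower, beside 29.6% and 27.4% of all autosomal genes. The summed level of the 6 markers was 3.5 to 5.09 CPM in Pcgf2/4 KO libraries and 18.3 to 20.5 CPM in WT libraries. The part of these markers in the decreases was not tested.

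**Figure D2:**
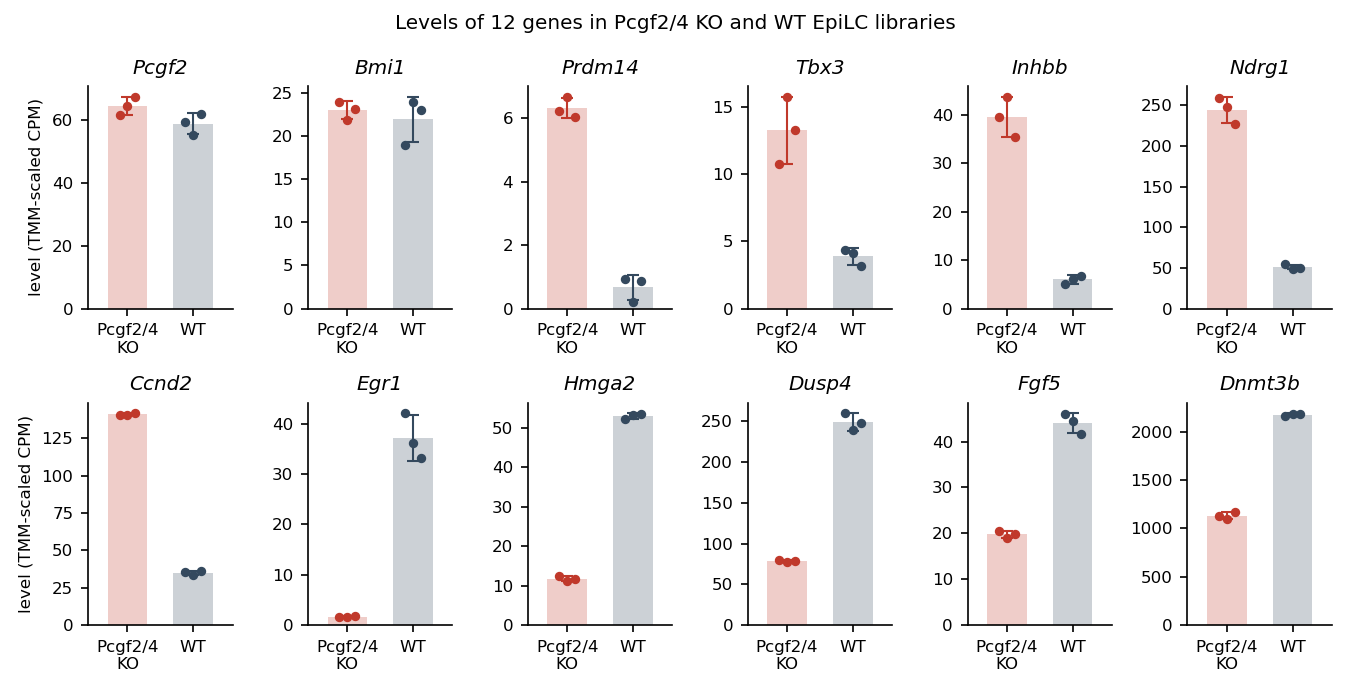
Levels of 12 genes as TMM-scaled CPM, on linear axes from 0, with Pcgf2/4 KO EpiLCs on the left and WT EpiLCs on the right of each panel. Bars are means, error bars are SD and points are the 3 libraries of a group. Prdm14, Tbx3, Inhbb, Ndrg1 and Ccnd2 are higher and Egr1, Hmga2, Dusp4 and Fgf5 lower in the knockout with no overlap, while Pcgf2 and Bmi1 are not lower.

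Recruited targets, which gain SUZ12 on the way to EpiLCs, had a larger share of genes called higher than all genes tested. Of 496 autosomal recruited targets, 276 passed the count minimum and were tested, and 35 (12.7%) were called higher and 14 (5.07%) lower, beside 1.96% and 3.69% of all autosomal genes tested. The median over them was 0.18 on the log2 scale (quartiles -0.23 and 0.61), against 0.01 over all autosomal genes tested. The medians of the 3 knockout libraries relative to the WT mean were 0.17, 0.20 and 0.14. Members that passed only because they are high in one group had to differ, so these shares are a description.

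The recruited genes that rose encode proteins of varied function. Beside Prdm14, Inhbb and Ndrg1, the largest increases were in Id1, Jam2 and Notum. Id1, an inhibitor of basic helix-loop-helix factors and a target of BMP signalling, had 3.97, 3.88 and 2.88 CPM in Pcgf2/4 KO libraries, against 0.647, 0.782 and 0.677 CPM in WT libraries. Jam2 had 9.17, 9.21 and 8.46 CPM in Pcgf2/4 KO libraries, against 1.29, 2.44 and 2.13 CPM in WT libraries. Notum, a secreted inhibitor of WNT proteins, had 5.29, 5.14 and 3.27 CPM in Pcgf2/4 KO libraries, against 0.924, 1.08 and 1.55 CPM in WT libraries. None of the 3 genes overlapped between groups, and 38.1% of the exon bases of Notum are shared with other genes, where reads are assigned to no gene. Meis2, a TALE homeobox gene, had 15.9, 18 and 14.9 CPM in Pcgf2/4 KO libraries, against 5.08, 4.11 and 4.06 CPM in WT libraries (log2 fold change 1.90, SE 0.13).

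Tbx3 (ENSMUSG00000018604, chromosome 5, 119670669 to 119684724), a T-box repressor of the naive network, is a recruited target. It had 10.8, 15.8 and 13.3 CPM in Pcgf2/4 KO libraries, against 4.35, 4.11 and 3.19 CPM in WT libraries. The groups did not overlap, and the log2 fold change was 1.79 (SE 0.15, adjusted p = 4.43e-13 in edgeR). The level in the knockout stayed far under that of the ESCs of the series, where the 3 libraries of J2WT, another WT line, had 417 to 427 CPM. Of its neighbours on chromosome 5, Rbm19 had a log2 fold change of -0.51 and Med13l of -0.10, neither of which was called. Tbx5 had 1, 2 and 2 counts in Pcgf2/4 KO libraries and 0 in each WT library, and Lhx5 had at most 1 count in any library, so neither was tested.

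Fewer recruited targets fell. Hmga2 (chromosome 10, 120361275 to 120476469), which encodes an architectural chromatin protein, had 12.4, 11.1 and 11.6 CPM in Pcgf2/4 KO libraries, against 52.2, 53.4 and 53.5 CPM in WT libraries. Its log2 fold change of -2.15 (SE 0.08, adjusted p = 2.16e-25 in edgeR) was the largest decrease of the class. Scube3, Nefl (32.8% of whose exon bases are shared with Nefm), Pld1, Pdgfc and Map6 followed, with log2 fold changes of -1.91, -1.70, -1.53, -1.47 and -1.42. Nefl encodes neurofilament light chain, Pdgfc a platelet-derived growth factor and Map6 a microtubule-associated protein. Pdgfc lies on chromosome 3.

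Displaced and maintained targets had medians below 0. Of 94 autosomal displaced targets, 75 were tested. Of these, 0 were called higher and 12 (16%) lower by edgeR, beside 1.96% and 3.69% of all autosomal genes tested. The median log2 fold change of displaced targets was -0.34 (quartiles -0.85 and -0.01). At an adjusted p under 0.05 without the fold limit, 12 displaced targets were higher and 47 lower, beside 29.6% and 27.4% of all autosomal genes tested, and DESeq2 also called 0 of them higher. Egr1 was the displaced target with the largest decrease, followed by Jph4, which encodes junctophilin 4, and the zinc finger gene Zfp608. Jph4 had 6.90, 6.98 and 7.59 CPM in Pcgf2/4 KO libraries, against 29.5, 31.6 and 30 CPM in WT libraries. Zfp608 had 7.47, 8.73 and 7.50 CPM in Pcgf2/4 KO libraries, against 25.1, 23.4 and 24.9 CPM in WT libraries. The list of maintained sites was read only in part. Of the 982 maintained targets tested from it, 29 (2.95%) were called higher and 136 (13.8%) lower, against the same 1.96% and 3.69% over all genes. Without chromosomes 3 and 15, 29 recruited targets were called higher and 12 lower, and 10 displaced targets lower.

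**Figure D3:**
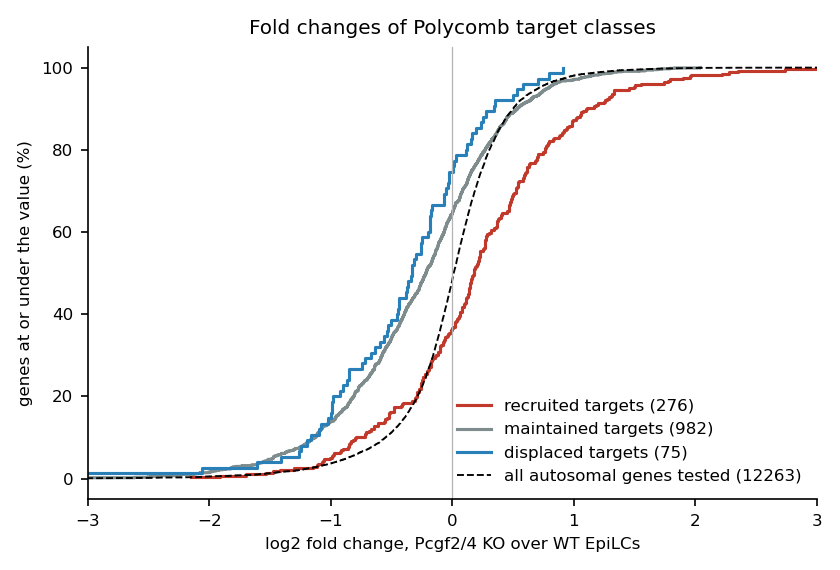
Cumulative share of genes (percent) against the log2 fold change of Pcgf2/4 KO over WT EpiLCs, drawn from -3 to 3, for 276 recruited, 982 maintained and 75 displaced targets and for all 12263 autosomal genes tested. The recruited curve lies to the right of the dashed curve of all genes over most of its length, with a median of 0.18, and the displaced and maintained curves lie to the left, with medians of -0.34 and -0.22.

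Canonical PRC1 acts with a set of partner subunits, and most of their transcripts were near WT levels. Of 13 cPRC1 genes tested, 2 were called higher and 0 lower in edgeR, beside 1.96% and 3.69% of all autosomal genes tested. At an adjusted p under 0.05 without the fold limit, 7 were higher and 1 lower (29.6% and 27.4% of all genes), and DESeq2 also called 0 lower. Cbx8, which encodes a chromodomain subunit, was among the genes that rose. Cbx8 had 5.39, 4.07 and 3.75 CPM in Pcgf2/4 KO libraries, against 1.94, 0.978 and 1.16 CPM in WT libraries. Cbx7, the main CBX gene of ESCs, had a log2 fold change of 0.31, Cbx2 of 0.20, Phc1 of 0.23 and Phc2 of -0.64, and none of these was called.

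Per length of transcript, Pcgf6 had the highest level of the PCGF genes and Pcgf5 the lowest in both groups. Mean RPKM was 25.8 in Pcgf2/4 KO and 32.2 in WT for Pcgf6, 18.1 and 16.3 for Pcgf2, and 13.2 and 12.9 for Pcgf3. Pcgf1 had 7.20 RPKM in Pcgf2/4 KO and 7.12 in WT, Bmi1 5.70 and 5.38, and Pcgf5 2.40 and 1.48. Among the 16 core and variant PRC1 genes tested, 0 were called in either direction. The log2 fold change furthest from 0 among them was that of Pcgf5, at 0.71 (SE 0.08). For Rnf2, which encodes RING1B, it was 0.17. Of 13 PRC2 genes tested, 0 were called in either direction, with log2 fold changes of 0.39 for Suz12, 0.11 for Ezh2, 0.09 for Mtf2 and -0.16 for Jarid2. At an adjusted p under 0.05 without the fold limit, 7 of the core and variant PRC1 genes were higher and 4 lower, and 7 of the PRC2 genes were higher and 3 lower. Of all autosomal genes tested, 29.6% were higher and 27.4% lower at that threshold, so the counts of lower genes on both lists were no larger than the share over all genes.

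Canonical PRC1 is known to repress the INK4-ARF locus, which encodes inhibitors of the G1 cyclin-dependent kinases. Cdkn2a, which holds p16 INK4A and ARF, had 24.7, 27.7 and 28.5 CPM in Pcgf2/4 KO libraries, against 15.4, 14.7 and 13.3 CPM in WT libraries. Its log2 fold change of 0.92 (SE 0.09, adjusted p = 1.42e-11) was just under the limit of the call, although the libraries did not overlap. The log2 fold change of the neighbouring Cdkn2b was 0.14 (adjusted p = 0.476 in edgeR). Of 14 genes of this list tested, 3 were called higher (Cdkn2c, Cdkn1c and Ccnd2) and 0 lower, beside 1.96% and 3.69% of all autosomal genes tested, and 4 were lower at an adjusted p under 0.05 without the fold limit (27.4% of all genes). Cdkn2c, which encodes the p18 inhibitor, had 9.27, 8.05 and 6.82 CPM in Pcgf2/4 KO libraries, against 2.87, 2.84 and 2.03 CPM in WT libraries. Cdkn1c, which encodes p57 and is imprinted, had 54.7, 49.1 and 46.5 CPM in Pcgf2/4 KO libraries, against 20.0, 20.9 and 21.3 CPM in WT libraries, and shares 30.7% of its exon bases with another gene. Both inhibitors and cyclin D2 were thus higher in every knockout library. Among 14 genes that p53 activates or that govern it, 0 were called in either direction, with 6 higher and 2 lower at an adjusted p under 0.05 (29.6% and 27.4% of all genes), and Cdkn1a, which is on both lists, had a log2 fold change of 0.83.

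Most naive pluripotency genes, which EpiLCs switch off, were called higher in the knockout, and 2 formative genes were called lower. Of 12 naive genes tested, 7 were called higher (Prdm14, Tbx3, Tfcp2l1, Klf4, Nanog, Esrrb and Klf2) and 1 lower, beside 1.96% and 3.69% of all autosomal genes tested, with a median log2 fold change of 1.08. Nanog had 213, 213 and 207 CPM in Pcgf2/4 KO libraries, against 94.7, 95.7 and 105 CPM in WT libraries. Esrrb had 199, 214 and 183 CPM in Pcgf2/4 KO libraries, against 93.8, 94.8 and 94.6 CPM in WT libraries. Tfcp2l1 had 76.5, 82.4 and 70.5 CPM in Pcgf2/4 KO libraries, against 32.1, 30.8 and 31.3 CPM in WT libraries. These transcription factors of the naive network thus differed by about the same size. Zfp42 (Rex1) had a log2 fold change of 0.78 and Klf5 of 0.45, neither past the limit. The naive gene that fell was Dppa3 (Stella), with 6, 10 and 4 counts in Pcgf2/4 KO libraries and 49, 50 and 43 counts in WT libraries. Of the 7 naive genes called higher 4 are recruited targets, and 31 of the 35 recruited targets called higher are not on the naive list.

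Fgf5, the classic EpiLC marker, had 20.6, 19 and 19.8 CPM in Pcgf2/4 KO libraries, against 45.9, 44.5 and 41.6 CPM in WT libraries. Foxd3, a forkhead regulator of the same transition and a recruited target, had 25.7, 26.9 and 24.6 CPM in Pcgf2/4 KO libraries, against 59.4, 53.9 and 56.7 CPM in WT libraries. These were the 2 genes called lower among 12 formative and primed genes tested, beside 3.69% of all autosomal genes, and none of the 12 was called higher by edgeR or DESeq2 (3 were higher at an adjusted p under 0.05, beside 29.6% of all genes). Pou3f1 (Oct6) had a log2 fold change of -0.99 and the de novo methyltransferase gene Dnmt3b of -0.92, both just short of the limit. Otx2 had a log2 fold change of 0.29, Pou5f1 (Oct4) of 0.12 and Sox2 of 0.28. None of these 3 was past the limit.

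The marker lists placed the knockout differently. The summed level of 6 EpiLC markers was 2480 to 2618 CPM in Pcgf2/4 KO libraries and 3748 to 3770 CPM in WT libraries. In ESC libraries of J2WT, another line, it was 1078 to 1150 CPM, so the knockout sum lay between. Dnmt3b had the largest part in this, with 35424 counts over the Pcgf2/4 KO libraries and 68389 over the WT libraries. Pou3f1 and Fgf5 also had fewer counts in the knockout, while Pou5f1, Otx2 and Zic2 had more. The summed level of 6 naive markers was 403 to 466 CPM in Pcgf2/4 KO libraries and 210 to 211 CPM in WT libraries, against 3668 to 3907 CPM in J2WT ESCs. The knockout thus lay nearer to WT EpiLCs than to ESCs in naive markers. Markers of trophoblast summed to at most 1.02 CPM in any of the 6 libraries, with Elf5 at 0 counts, and Neurog2 of neuroectoderm was also at 0.

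The genes called were also looked up in the normal transition. J2WT is a WT line of another set of the series, and its EpiLC and ESC libraries share none with the knockout or its control. Of 13354 autosomal genes tested there, 2006 (15%) were called lower and 1990 (14.9%) higher in EpiLCs than in ESCs. Of the 220 genes higher in Pcgf2/4 KO that were tested in J2WT, 108 (49.1%) were lower and 29 (13.2%) higher in J2WT EpiLCs than in ESCs. Of the 444 genes lower in Pcgf2/4 KO that were tested in J2WT, 280 (63.1%) were higher and 45 (10.1%) lower in J2WT EpiLCs than in ESCs. Among all 12106 autosomal genes tested in both comparisons, 11.3% were lower and 15.1% higher in J2WT EpiLCs. Seen from the other side, 108 of the 1374 genes lower in J2WT EpiLCs and tested in both were called higher in the knockout. Of the 1830 genes higher in J2WT EpiLCs and tested in both, 280 were called lower. These stand beside 1.96% called higher and 3.69% lower of all autosomal genes tested. Over all genes lower or higher in J2WT EpiLCs, which include genes not tested in the knockout, the shares were 5.38% and 14.1%. This comparison was added after the data were seen, and the part of a shift in differentiation state in any single gene was not tested.

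**Figure D4:**
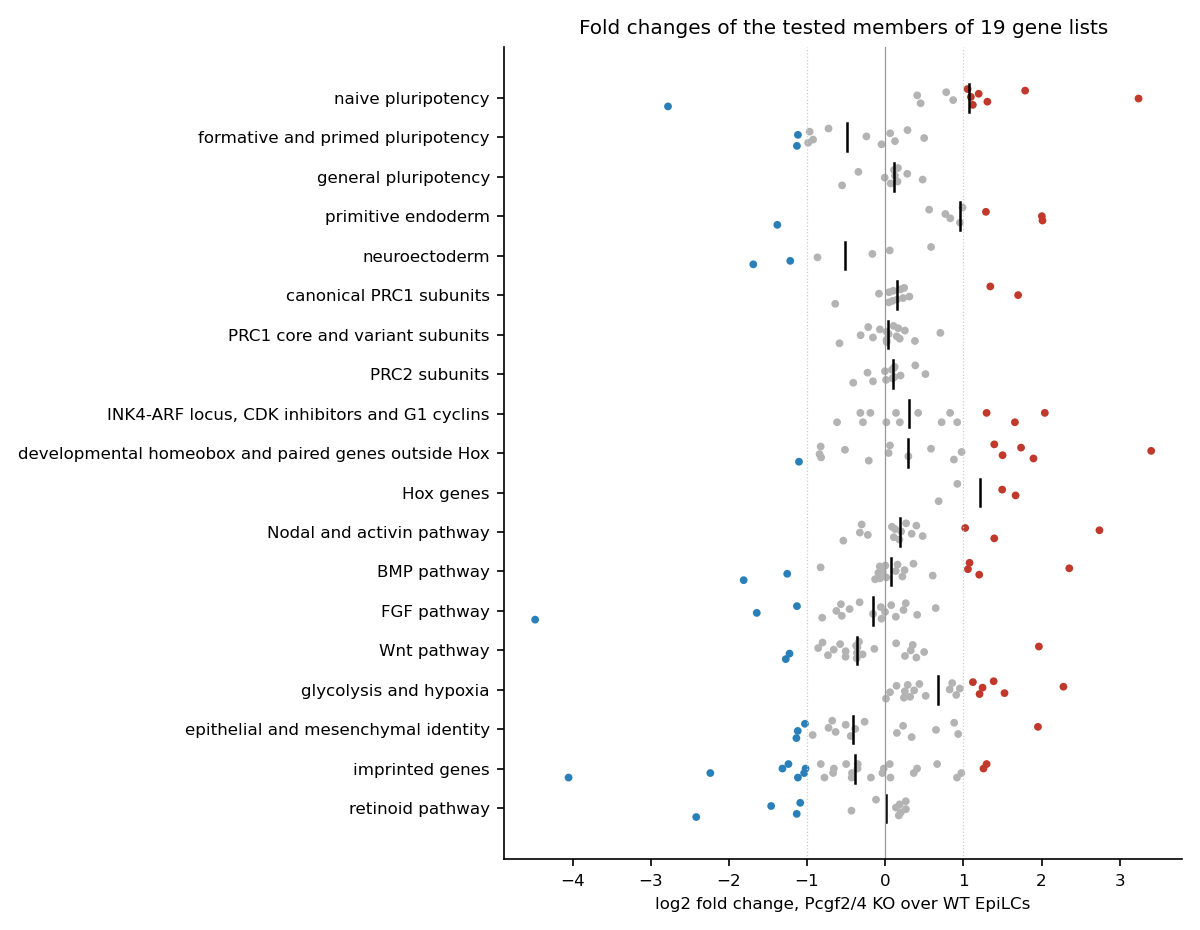
Log2 fold change of Pcgf2/4 KO over WT EpiLCs for the tested members of 19 gene lists, 1 point per gene. Red points were called higher, blue points lower and grey points neither, black ticks are medians, and dotted lines mark -1 and 1. Naive pluripotency (median 1.08) and primitive endoderm (0.96) lie to the right, and formative and primed pluripotency (-0.48) to the left.

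Developmental regulators that Polycomb keeps silent were mostly still near silence. Of 39 Hox genes, 4 passed the count minimum, of which Hoxa5 and Hoxc13 were called higher and 0 lower by edgeR or DESeq2 (1.96% and 3.69% of all autosomal genes tested), and all 4 had an adjusted p under 0.05 and a fold change above 0. Hoxa5 had 3.40, 3.68 and 3.46 CPM in Pcgf2/4 KO libraries, against 1.2, 1.17 and 0.968 CPM in WT libraries. Summed over the 39 genes, Hox transcripts came to 29.7, 30.5 and 30.5 CPM in Pcgf2/4 KO libraries, against 12.8, 13.6 and 14 CPM in WT libraries. The summed level was thus higher in each knockout library, though small. Among the 35 Hox genes under the count minimum, 23 had more counts in the knockout, 5 had more in WT and 4 had none. In 13 of the 35 the counts of all knockout libraries lay above all WT libraries and in 2 below, beside 2.97% and 5.29% of the 16481 autosomal genes that were detected but not tested. Hoxa10, for example, had 25, 18 and 19 counts in Pcgf2/4 KO libraries and 2, 3 and 1 counts in WT libraries. With no count filter, 11 of 35 Hox genes tested were called higher and 1 lower, beside 1.55% and 3.19% of 28744 autosomal genes.

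Homeobox and paired genes outside the Hox clusters included genes called in both directions. Of 59 autosomal genes, 17 were tested, of which 5 were called higher (among them Vax2, Meis2, Lhx2 and Irx2) and 1, Gbx2, lower, beside 1.96% and 3.69% of all autosomal genes tested. Lhx2, a LIM homeobox gene of the forebrain and eye, had a log2 fold change of 1.74, and Irx2, an Iroquois gene, one of 1.5. Gbx2 had 35.9, 35.5 and 39.3 CPM in Pcgf2/4 KO libraries, against 78.3, 83.5 and 79.9 CPM in WT libraries, and 43.5% of its exon bases are shared with a neighbouring transcript. Summed over the 59 genes the level was 357 to 379 CPM in Pcgf2/4 KO libraries and 353 to 366 CPM in WT libraries.

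Primitive endoderm regulators, which specify the extraembryonic lineage beside the epiblast, were among the developmental genes that rose. Of 9 genes tested, 3 were called higher (Gata6, Pdgfra and Cubn) and 1, Lamb1, lower, beside 1.96% and 3.69% of all autosomal genes tested, with a median log2 fold change of 0.96. Gata6, the transcription factor that starts this lineage, had 10.9, 9.89 and 10.3 CPM in Pcgf2/4 KO libraries, against 2.59, 2.74 and 2.52 CPM in WT libraries. Pdgfra, the receptor used to mark it, had 3.21, 3.20 and 3.94 CPM in Pcgf2/4 KO libraries, against 1.29, 0.391 and 0.871 CPM in WT libraries. Each gene was higher in every knockout library. Gata4 and Sox17 were under the count minimum, with 71 and 65 counts over the Pcgf2/4 KO libraries and 17 and 10 counts over the WT libraries. Lamb1, which encodes a laminin beta chain abundant in EpiLCs as well, had 60, 66.0 and 65.7 CPM in Pcgf2/4 KO libraries, against 170, 172 and 165 CPM in WT libraries. The summed level of 5 markers of the lineage (Gata4, Gata6, Sox17, Sox7 and Pdgfra) was 18.5 to 20 CPM in Pcgf2/4 KO libraries and 4.40 to 5.27 CPM in WT libraries.

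Neuroectoderm genes were lower where they were called. Of 6 genes tested, 2 were called lower (Sox1 and Neurod1) and 0 higher in edgeR, and DESeq2 also called 0 higher. Of all autosomal genes tested, 3.69% were called lower. At an adjusted p under 0.05 without the fold limit, 1 neuroectoderm gene, Pax6, was higher (log2 fold change 0.59), beside 29.6% of all genes. Sox1, the earliest neural SOX factor, had 8.51, 8.63 and 8.46 CPM in Pcgf2/4 KO libraries, against 29.0, 26.7 and 28.1 CPM in WT libraries. The log2 fold change of Sox1 was -1.69 (SE 0.10).

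Nodal and BMP pathway genes had larger shares called higher than all autosomal genes tested, of which 1.96% were called higher and 3.69% lower. In the Nodal and activin pathway, which sustains EpiLCs in this culture, 3 of 16 genes tested were called higher (among them Inhbb and Pcsk6) and 0 lower by edgeR or DESeq2, with 4 lower at an adjusted p under 0.05 (27.4% of all genes). The ligand gene Nodal had a log2 fold change of 0.40 and was not called. Pcsk6, a convertase that processes Nodal, had 48.6, 51.6 and 43.0 CPM in Pcgf2/4 KO libraries, against 23.2, 23.0 and 25.4 CPM in WT libraries. Its log2 fold change was 1.02 and fell short of the limit at 0.97 without Pcgf2/4 KO replicate 2 and at 1.00 without WT replicate 1. In the BMP pathway 4 of 20 genes were called higher (Id1, Id3, Id4 and the ligand gene Bmp4) and 2 lower (Id2 and Bmp8b). Bmp4 had 11.9, 11.1 and 8.27 CPM in Pcgf2/4 KO libraries, against 5.55, 4.21 and 5.23 CPM in WT libraries. Its log2 fold change of 1.08 was 0.97 without Pcgf2/4 KO replicate 1 and 0.98 without WT replicate 2, and that of Id3, at 1.06, was 0.97 without Pcgf2/4 KO replicate 1 and 0.99 without Pcgf2/4 KO replicate 2, all short of the limit. Id2, another of the helix-loop-helix inhibitors, had 3.40, 1.94 and 1.92 CPM in Pcgf2/4 KO libraries, against 5.27, 6.45 and 6.00 CPM in WT libraries.

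Genes induced by FGF and ERK signalling were lower where they were called. Of 19 FGF pathway genes tested, 3 were called lower (Egr1, Dusp4 and Fgf5) and 0 higher by edgeR or DESeq2, beside 3.69% and 1.96% of all autosomal genes tested. The counts were 5 higher and 9 lower at an adjusted p under 0.05, beside 29.6% and 27.4% of all genes. Dusp4, a phosphatase that switches ERK off and is induced by it, had 79.3, 77.8 and 78.4 CPM in Pcgf2/4 KO libraries, against 260, 239 and 248 CPM in WT libraries. The related Dusp6 had a log2 fold change of -0.63 and the ERK-responsive factor Etv5 one of 0.26, and neither was called. In the Wnt pathway 1 of 23 genes tested was called higher (Notum) and 2 lower (Wnt5b and Sfrp4), and the feedback target Axin2 had a log2 fold change of -0.51. At an adjusted p under 0.05 without the fold limit, 5 Wnt genes were higher and 14 lower, beside 29.6% and 27.4% of all genes. The median log2 fold change of the Wnt list was -0.36. In the Notch pathway 2 of 15 were called higher (Notch4 and Hey1) and 1 lower (Dll3). Notch4 had 11.9, 14 and 13.6 CPM in Pcgf2/4 KO libraries, against 3.51, 4.01 and 3.58 CPM in WT libraries. Hey1 had a log2 fold change of 1.16, which was 0.89 without WT replicate 1, and lies on chromosome 3. Of 11 genes of LIF and STAT3 signalling, Klf4 was called higher and Gbx2 lower.

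Genes of glucose use and oxygen response were mostly higher. Of 20 genes tested, 6 were called higher (Ndrg1, Slc2a1, Ankrd37, Aldoc, Slc2a3 and Adm) and 0 lower by edgeR or DESeq2, beside 1.96% and 3.69% of all autosomal genes tested. The counts were 18 higher and 0 lower at an adjusted p under 0.05, beside 29.6% and 27.4% of all genes. The median log2 fold change of the list was 0.67. Slc2a1, a glucose transporter, had 2198, 2154 and 2077 CPM in Pcgf2/4 KO libraries, against 770, 752 and 746 CPM in WT libraries. Slc2a3, another glucose transporter, had 1888, 1899 and 1744 CPM in Pcgf2/4 KO libraries, against 812, 812 and 810 CPM in WT libraries. Both were among the more abundant transcripts of the libraries and differed by over 2-fold. The glycolytic enzyme gene Pfkp had a log2 fold change of 0.95, and Bnip3 and Egln3, both induced by low oxygen, had 0.91 and 0.86. Transcripts of the mitochondrial genome made up 1.28 to 1.58% of counts in Pcgf2/4 KO libraries and 1.82 to 2.07% in WT libraries. The oxygen level and medium of the individual cultures are not given, and their part in these values was not tested.

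Epithelial genes and retinoid genes were lower where they were called. Among 18 genes of epithelial or mesenchymal identity tested, Zeb1, a repressor of epithelial genes and a recruited target, was called higher, with 11.5, 14.9 and 12.7 CPM in Pcgf2/4 KO libraries, against 3.24, 3.03 and 3.97 CPM in WT libraries. The claudin genes Cldn6 and Cldn7 and the epithelial splicing factor gene Esrp1 were called lower. Of all autosomal genes tested, 1.96% were called higher and 3.69% lower. Cldn7 had 17.9, 17.0 and 15.6 CPM in Pcgf2/4 KO libraries, against 38.2, 36.0 and 38.4 CPM in WT libraries. Esrp1 had a log2 fold change of -1.03, which was -0.98 without Pcgf2/4 KO replicate 2. E-cadherin (Cdh1) had a log2 fold change of -0.44 and vimentin (Vim) of 0.93, short of the limit. Of 12 retinoid genes tested, 4 were called lower (among them Stra6, Rxrg and Crabp2) and 0 higher by edgeR or DESeq2, with 3 higher at an adjusted p under 0.05 (29.6% of all genes). Stra6, the receptor that takes up retinol, had 2.27, 2.71 and 3.36 CPM in Pcgf2/4 KO libraries, against 13.8, 15.9 and 15.8 CPM in WT libraries.

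Imprinted genes and genes of DNA methylation gave a mixed picture. Of 28 imprinted genes tested, 2 were called higher (Cdkn1c and Slc22a18) and 7 lower (Dcn, Dlk1, Nnat, Plagl1, Usp29, Snrpn and Grb10), beside 1.96% and 3.69% of all autosomal genes tested, with a median log2 fold change of -0.39. Dlk1, a paternally expressed growth regulator, had 1.51, 1.84 and 1.73 CPM in Pcgf2/4 KO libraries, against 8.41, 6.36 and 9.68 CPM in WT libraries. Snrpn had 97.7, 98.9 and 94.0 CPM in Pcgf2/4 KO libraries, against 204, 199 and 203 CPM in WT libraries, and 34.1% of its exon bases are shared with other transcripts. Of these 7, Usp29 and Grb10 lost the call with 1 library left out, at -0.92 without Pcgf2/4 KO replicate 3 for Usp29 and -0.99 without Pcgf2/4 KO replicate 2 and -1 after rounding without WT replicate 2 for Grb10. H19 had a log2 fold change of 0.97 and Peg3 of -0.67. Of 11 DNA methylation genes tested, Tet2, which encodes an enzyme that oxidises methylcytosine, was called higher, with 188, 199 and 200 CPM in Pcgf2/4 KO libraries, against 72.4, 76.5 and 66.5 CPM in WT libraries. Tet2 lies on chromosome 3. No gene of this list was called lower by edgeR or DESeq2, although 3 were lower at an adjusted p under 0.05 (27.4% of all genes), among them Dnmt3b.

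The effects of the knockout were set beside those of the PRC2 mutants of the series, which lack JARID2 (J2KO), PHF1, PHF19 and MTF2, the Polycomb-like proteins (TKO), or all of these (QKO), each against WT EpiLCs of its own set (J2WT for J2KO, PclWT for the others). This asks whether loss of cPRC1 and loss of a PRC2 branch change the same genes by the same amount. A contrast of 4 groups tested the difference of effects in edgeR. The 3 contrasts share the Pcgf2/4 KO and WT libraries, and those with TKO and QKO also share the PclWT libraries, so they are given side by side. Of 12839 autosomal genes tested against J2KO, the effect of Pcgf2/4 KO was more positive for 544 (4.24%) and more negative for 1228 (9.56%). Against TKO it was more positive for 1064 (8.55%) and more negative for 1169 (9.4%) of 12442 genes. Against QKO it was more positive for 856 (6.87%) and more negative for 1045 (8.38%) of 12464 genes. The mutants and their controls come from different lines, so line and mutation cannot be told apart in these differences.

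Recruited targets had a lower median in Pcgf2/4 KO than in QKO. Over the 269 recruited targets tested in both, the median log2 fold change was 0.18 in Pcgf2/4 KO and 0.47 in QKO. Over the 267 tested in both Pcgf2/4 KO and TKO the medians were 0.17 and 0.30, and over the 275 tested in both Pcgf2/4 KO and J2KO they were 0.18 and 0.19. Tested gene by gene, the effect of Pcgf2/4 KO was more positive for 19 (6.17%) and more negative for 73 (23.7%) of 308 recruited targets against QKO. Against TKO these counts were 36 (11.8%) and 55 (18.1%) of 304, and against J2KO 38 (12.8%) and 46 (15.4%) of 298. Over all autosomal genes tested the shares were 6.87% and 8.38% against QKO, 8.55% and 9.4% against TKO, and 4.24% and 9.56% against J2KO. The share of recruited targets more positive than in QKO was thus near that over all genes.

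Tbx3 was placed between the mutants. Its log2 fold change of 1.79 in Pcgf2/4 KO stood beside 0.43 in J2KO, 2.20 in TKO and 4.00 in QKO. Mean levels were 13.3 CPM in Pcgf2/4 KO, 9.18 CPM in J2KO, 41.9 CPM in TKO and 144 CPM in QKO EpiLCs. The controls had 3.88 CPM (WT of this set), 6.9 CPM (J2WT) and 8.84 CPM (PclWT), so the differences of effects also rest on unequal controls. The effect of Pcgf2/4 KO was larger than that of J2KO by 1.37 (SE 0.20, adjusted p = 4.35e-07) and smaller than that of QKO, with a difference of -2.22 (SE 0.24, adjusted p = 4.03e-05 in edgeR). The difference from TKO was -0.41 (SE 0.26, adjusted p = 0.225), which does not show that they act alike. Meis2 had the same order, with 1.90 in Pcgf2/4 KO beside 0.28 (J2KO), 3.08 (TKO) and 4.39 (QKO), and all 3 differences of Meis2 were called. Inhbb had log2 fold changes of 2.74 in Pcgf2/4 KO, 1.08 in J2KO, 4.32 in TKO and 6.09 in QKO, again with all 3 differences called.

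Other recruited targets gave other orders. Prdm14 had log2 fold changes of 3.24 in Pcgf2/4 KO, 2.25 in J2KO, 0.87 in TKO and 3.11 in QKO. Its effect in Pcgf2/4 KO was larger than in J2KO and TKO by 1.01 (SE 0.41, adjusted p = 0.032) and 2.37 (SE 0.43, adjusted p = 0.00116). For QKO the difference was 0.12 (SE 0.36, adjusted p = 0.819). Ndrg1 was higher in Pcgf2/4 KO, at 2.28, and had -0.17 in J2KO, -2.89 in TKO and -1.87 in QKO, with all differences called. Hmga2 went the other way, with -2.15 in Pcgf2/4 KO beside 0.92 in J2KO, 3.36 in TKO and 2.98 in QKO. The differences for Hmga2 were -3.06 (SE 0.08) from J2KO, -5.52 (SE 0.15) from TKO and -5.15 (SE 0.15) from QKO, with an adjusted p of at most 1.69e-09 in edgeR. In the plot of 4 mutants the recruited genes thus share no single order.

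**Figure D5:**
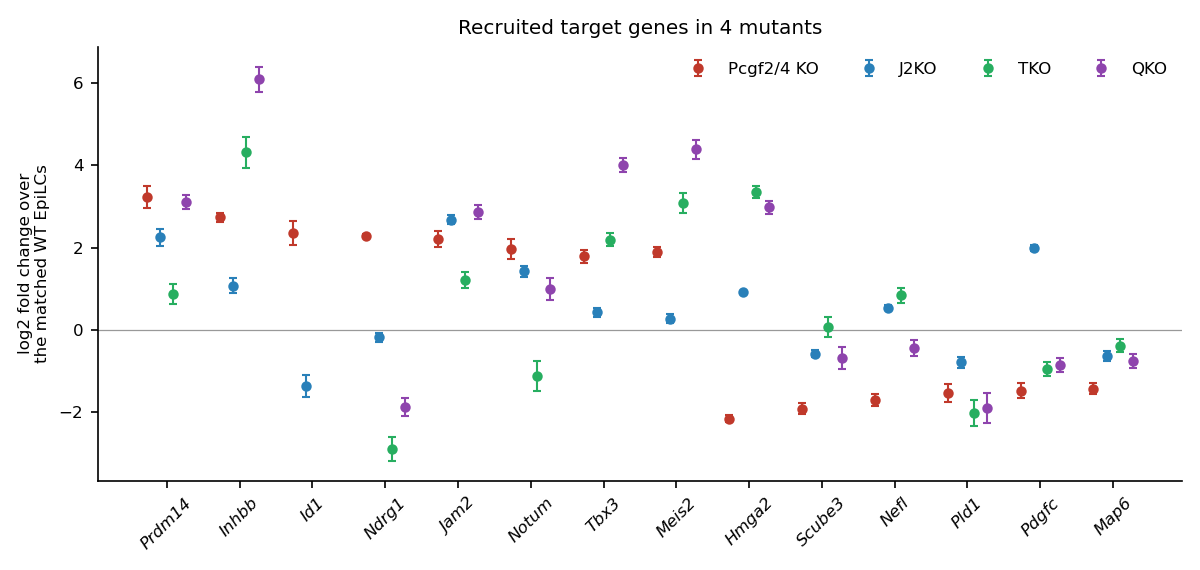
Log2 fold change over the matched WT EpiLCs for 14 recruited targets in Pcgf2/4 KO, J2KO, TKO and QKO EpiLCs. Points are edgeR estimates, error bars are SE, and a missing point was not tested. Tbx3, Meis2 and Inhbb are highest in QKO, while Hmga2 is below 0 only in Pcgf2/4 KO and Ndrg1 above 0 only in Pcgf2/4 KO among these 4 mutants.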

How the data were processed

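Poly(A) RNA was sequenced as single-end reads from an unstranded kit, and the authors aligned it with STAR to the mouse genome (GRCm38, Ensembl annotation). The deposited values are raw read counts per gene, and column 2 (both strands together) was used. Reads without strand from a gene and its antisense partner cannot be told apart, and reads in exon bases shared by genes are given to neither.

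Counts were tested with edgeR 4.0.16 in R 4.3.3 (TMM factors, quasi-likelihood test, no covariate) over the 6 libraries, for genes whose mean normalized count reached 15, with Benjamini-Hochberg adjustment over all 12754 genes, X and Y included. The SE was the log2 fold change divided by the square root of the F statistic. Contrasts of 4 groups gave differences between mutants. No 2 files held identical counts. The test was checked on simulated counts. Total counts limit the precision as given in the report.

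Alternatives were DESeq2 1.42.0, RLE factors, protein-coding genes only, other count minimums, all 18 EpiLC libraries in 1 fit, a replicate block, sites overlapping the transcription start, and leaving out each library. Named genes were the 12 largest non-overlapping calls in each direction with a proper gene name, the 6 largest recruited and 3 largest displaced calls in each direction, the 4 largest differences in each direction per contrast, members of 36 gene lists (those called, with a few others of known role; a few called members are not reported here), and Pcgf2, Bmi1, Tbx3, Tbx5 and Lhx5. Hoxa10 was chosen after its values were seen. The members and lists were chosen with earlier results of these data known. The study's list of maintained sites was read only in part (1998 sites). Figures were drawn with matplotlib 3.10.9.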

Additional observations from a re-analysis of the deposited data

Results flagged for a closer look

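The effect of Pcgf2/4 KO differed from that of the other mutants when the difference itself was tested in edgeR. It was more positive than that of J2KO for 544 autosomal genes and more negative for 1228, more positive than that of TKO for 1064 and more negative for 1169, and more positive than that of QKO for 856 and more negative for 1045. For Tbx3 the difference was 1.37 on the log2 scale from J2KO and -2.22 from QKO.

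The 4 largest differences in each direction were flagged for each mutant. Against J2KO they were 5.55 for Cubn, 5.51 for the olfactory receptor gene Olfr147, 5.23 for Gata6 and 4.22 for Pdgfra, and -5.92 for Gm21738, -5.65 for Gm10801, -5.26 for Egr1 and -5.19 for Ticam2. Cubn, Gata6 and Pdgfra, all of primitive endoderm, had log2 fold changes of 1.29, 2.00 and 2.01 in Pcgf2/4 KO and of -4.25, -3.22 and -2.19 in J2KO. Against TKO they were 6.50 for Dnajc5g, 6.11 for Gm10801, 5.35 for Mmrn2 and 5.28 for Xaf1, and -7.64 for Pou4f2, -7.52 for Gsx1, -7.20 for Esr1 and -6.89 for AC133509.1. Against QKO they were 8.32 for Gm10801, 6.29 for Zbp1, 6.00 for H19 and 5.23 for Oasl2, and -7.26 for Pou4f2, -6.88 for AC133509.1, -6.11 for Tll1 and -6.02 for Esr1.

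Several of these rest on the other mutant or its control. AC133509.1 averaged 221 CPM in Pcgf2/4 KO and 196 CPM in WT, beside 166 CPM in TKO and 1.19 CPM in PclWT. Esr1 averaged 0.0323 CPM in Pcgf2/4 KO and 0.0616 CPM in WT, so its fitted differences depend on the prior count. The difference of Esr1 from TKO was -4.63 (adjusted p = 0.941 in edgeR) without WT replicate 1. That from QKO was -3.42 (adjusted p = 0.911) without WT replicate 1, -5.57 (adjusted p = 0.0596) without Pcgf2/4 KO replicate 1, -5.58 (adjusted p = 0.0594) without Pcgf2/4 KO replicate 3 and -6.02 (adjusted p = 0.0513) without QKO replicate 1.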

How the results depend on the processing

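With no count filter beyond 1 count, 446 genes were called higher and 918 lower in Pcgf2/4 KO EpiLCs and 27 recruited targets lower, and the medians were 0.14 for recruited targets, 0.14 for chromosome 3 and 0.12 for chromosome 15. With a mean count of at least 50, 125 genes were called higher and 222 lower, 22 recruited targets higher, and the median of chromosome 15 was 0.18. Under the same minimum the contrast with J2KO gave 309 positive and 708 negative genes and 30 recruited targets negative, and that with TKO gave 23 recruited targets positive. Fewer or more genes are tested under these filters. Bmi1 had a log2 fold change of -0.01 without WT replicate 1. Leaving out 1 library at a time gave 218 to 280 genes higher, 434 to 522 lower, 32 to 40 recruited targets higher, 13 to 17 lower, a recruited median of 0.15 to 0.19, 10 to 13 displaced targets lower with a median of -0.34 to -0.30, 1.65 to 1.92 for Tbx3, 0.12 to 0.19 for Pcgf2, -0.01 to 0.16 for Bmi1, 0.18 to 0.19 for chromosome 3 and 0.15 to 0.17 for chromosome 15. The replicate block called 240 genes higher and 453 lower. Same-numbered libraries had correlated deviations of 0.018, 0.051 and -0.036, so the numbers did not pair them. Of 133 named genes called, 18 lost the call under at least 1 of 13 settings, among them Bmp4, Id3, Pcsk6, Esrp1, Grb10, Usp29 and Hey1. The cause of these changes was not tested beyond the number of genes and libraries in each fit.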

Other observations

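The lists not described above had few genes called, and their counts stand beside 1.96% higher and 3.69% lower of all autosomal genes called, and 29.6% higher and 27.4% lower at an adjusted p under 0.05. Of 13 germline genes tested, Tdrd1 (log2 fold change -1.03) and Tex101 (-1.15) were called lower and 0 higher by edgeR or DESeq2, with 4 higher and 5 lower at an adjusted p under 0.05. The log2 fold change was -0.92 without Pcgf2/4 KO replicate 1 and -0.98 without WT replicate 2 for Tdrd1, and -0.93 without Pcgf2/4 KO replicate 2 for Tex101. Of 14 genes of the integrated stress response, Slc7a11, which encodes the cystine transporter, was called lower (-1.04, and -0.98 without Pcgf2/4 KO replicate 2), with 5 higher and 9 lower at an adjusted p under 0.05. All 3 of these calls were thus lost with 1 library left out. Of 12 laminin and collagen IV genes tested, Lamb1 was called lower and 5 were higher and 5 lower at an adjusted p under 0.05. Of 14 interferon response genes and of 10 general pluripotency genes, 0 were called by edgeR or DESeq2, and 3 and 5 were higher and 5 and 2 lower at an adjusted p under 0.05. Of 7 fibroblast genes tested, Pdgfrb was called higher (1.08, and 0.91 without Pcgf2/4 KO replicate 2) beside the 3 called lower.

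Of 6 trophoblast genes tested, Tfap2c was called higher, and of 3 GATA, FOX and SOX factors Gata6 and Sox21 were called higher and Sox1 lower. Of 4 T-box genes tested, Tbx3 was called higher, and of 2 mesendoderm genes, Gata6. The 2 clustered protocadherin genes tested were not called, and none of 8 genes of the 2-cell-like state passed the count minimum. Of 4 genes tested around Tbx3, Tbx3 was called higher. The list of mitochondrial genome genes holds no autosomal gene.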
